A study of Drosophila melanogaster with 4 samples.

Results

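Long noncoding RNAs are transcripts that are made much like messenger RNAs but have no recognised protein product. Of the 17137 genes counted in nuclear RNA from fly heads, 1920 carried the lncRNA prefix, and the 19 described here were chosen by their counts, as those with at least 200 counts summed over the 4 libraries, leaving out lncRNA:roX1 and lncRNA:roX2. The summed count chose the members, so their abundance is a description and carries no test. The rule itself uses no difference between genotypes, though a gene at its edge can pass through the group where it is higher. At the edge of the threshold, lncRNA:CR45223, lncRNA:CR45312 and lncRNA:CR45533 had 210, 200 and 200 counts inside it, and lncRNA:CR43650, lncRNA:CR43199 and lncRNA:CR45180 had 189, 169 and 166 counts outside it. A total of 1203 lncRNA genes had 0 counts in all 4 libraries.

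The nuclei came from heads of 10-day-old Drosophila melanogaster. They were purified by INTACT, a pull-down of nuclei whose envelope carries a tag, here UNC84, a nuclear membrane protein, joined to GFP. Its expression was under a split-Gal4 driver, in which a pair of promoters each supplies a part of the Gal4 activator. The first genotype, VAChT:VGlut split-Gal4/UAS-UNC84, joined the promoters of the vesicular transporters for acetylcholine (VAChT) and glutamate (VGlut). The second, VAChT:VGAT split-Gal4/UAS-UNC84, joined VAChT with the vesicular GABA transporter VGAT. The VAChT part and the tag were thus common to the genotypes, none had a treatment, and each had 2 libraries made from pooled heads. The labels do not give the sex of the flies or say whether a genotype's 2 libraries were collected separately, so p-values measure only the spread between these libraries.

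Many lncRNAs stay in the nucleus, where some hold proteins in nuclear bodies, some are cut to release microRNAs, and some overlap protein genes whose transcripts run through the same DNA. Among the 19, lncRNA:Hsromega is the RNA around which omega speckles form, nuclear bodies that store RNA-processing proteins, and it is induced strongly by heat. lncRNA:CR31451 is listed by RefSeq under the newer name lncRNA:mimi, described in flies as a scaffold of RNA-protein granules in neurons. lncRNA:noe is known as a polyadenylated RNA of the nervous system. The other members have only annotation numbers, and no function is given for them here unless a named small RNA lies within them.

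Counts summed to 2023040 and 2556988 in VAChT:VGlut, and in VAChT:VGAT to 1937871 and 1490390. The test with edgeR covered 8246 genes, and 970 of them (11.8%) had an adjusted p-value under 0.05. Neuronal markers were abundant, with 12016 and 12263 CPM summed over 9 genes in VAChT:VGlut and 10224 and 10332 CPM in VAChT:VGAT (CPM, the count per 1000000 counts of the library). Markers of other head cells were abundant too. In VAChT:VGlut and VAChT:VGAT libraries, 15 photoreceptor genes summed to 35385 to 35752 and 29195 to 29320 CPM, 10 fat body genes to 27335 to 27952 and 33853 to 33913 CPM, 10 glial genes to 2207 to 2288 and 2828 to 2846 CPM, 11 muscle genes to 1575 to 1586 and 1211 to 1218 CPM, and 8 hemocyte genes to 903 to 963 and 1124 to 1169 CPM. The yolk protein genes Yp1, Yp2 and Yp3 made up most of the fat body sum. They averaged 11371, 6960 and 5361 CPM in VAChT:VGlut and 13605, 8872 and 7032 CPM in VAChT:VGAT. Of 10 germline and ovary genes, Cp36 had 0 counts throughout, and the list summed to 3.02 to 3.97 and 53.9 to 56.8 CPM. Whether this mixture of cells bears on the lncRNA values below was not tested, and in bulk RNA fewer cells of a type and less RNA per cell cannot be told apart.

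The 19 members took 1.84% and 1.82% of all counts in VAChT:VGlut, against 1.75% and 1.73% in VAChT:VGAT. They held most of the reads of their class, between 86.8% and 87.3% of the counts of all lncRNA genes in a library. A single gene, lncRNA:CR42862, took 1.28% and 1.25% of all counts in VAChT:VGlut and 1.23% and 1.21% in VAChT:VGAT, and was the third most abundant of the 8246 tested genes by mean CPM. Between the 5 most abundant members and the rest there was a gap, with 3178 summed counts at least in the first set and 849 at most in the second. These 5 (lncRNA:CR42862, lncRNA:noe, lncRNA:CR31451, lncRNA:Hsromega and lncRNA:CR34335) made up between 96.1% and 96.4% of the members' counts.

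**Figure D1:**
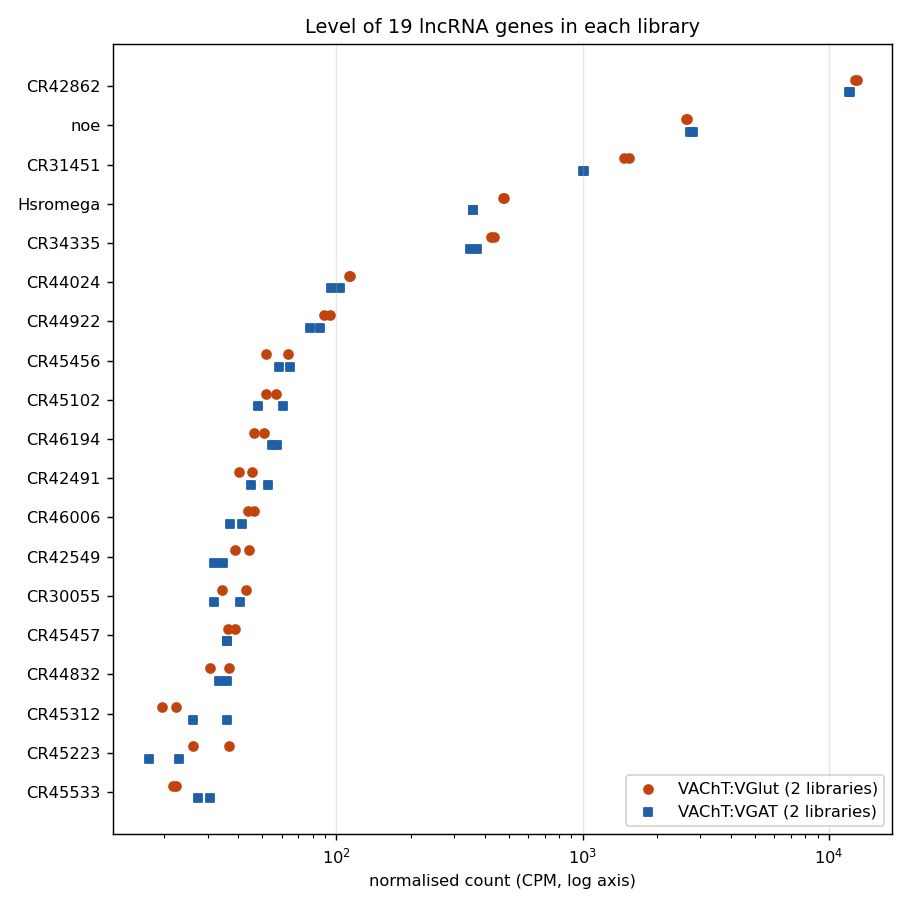
Normalised count of each of the 19 lncRNA genes in each library (CPM, log axis), ordered by mean, with VAChT:VGlut libraries as circles and VAChT:VGAT libraries as squares. The libraries of a genotype lie close together, and 5 genes stand above the other 14.

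The genotypes were then compared gene by gene. Of the 19 members, 4 passed the test (21.1%, against 11.8% of all genes tested), and all 4 were higher in VAChT:VGlut: lncRNA:CR31451, lncRNA:Hsromega, lncRNA:CR34335 and lncRNA:CR42862. Over all genes tested, 6.22% were called higher in VAChT:VGlut and 5.54% higher in VAChT:VGAT. With the biological coefficient of variation set to 0.1, above the fitted value, lncRNA:CR31451 alone of the 4 was called. Calls were commoner among abundant genes. Among protein genes and other genes with no noncoding prefix that reached 200 summed counts, 16.4% were called, and among all genes with 1000 summed counts or more, 33.5% were. The 4 called members were among the 5 with 1000 counts or more, and 0 of the 14 below that count were called by edgeR, limma-voom or DESeq2 (2, 2 and 0 had an unadjusted p-value under 0.05). Limma-voom called 11.6% of all genes and DESeq2 4.49%. At an unadjusted p-value under 0.05 there were 7 members, against 22.2% of all genes. In 14 of the 19, the libraries of the genotypes did not overlap, 10 of them higher in VAChT:VGlut and 4 higher in VAChT:VGAT. Of all tested genes, 49.3% were separated in this way, 23.6% with VAChT:VGlut higher and 25.6% with VAChT:VGAT higher. The median log2 fold change (VAChT:VGlut over VAChT:VGAT) was 0.09 over the members, 0.02 over the genes with no noncoding prefix and at least 200 counts, and -0.01 over all genes tested. The members' median was 0.030 without VAChT:VGlut replicate 2 and 0.027 with lncRNA genes from 100 counts up, and its difference from the genes with no noncoding prefix, 0.07 here, was then 0.011 and 0.0099.

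**Figure D2:**
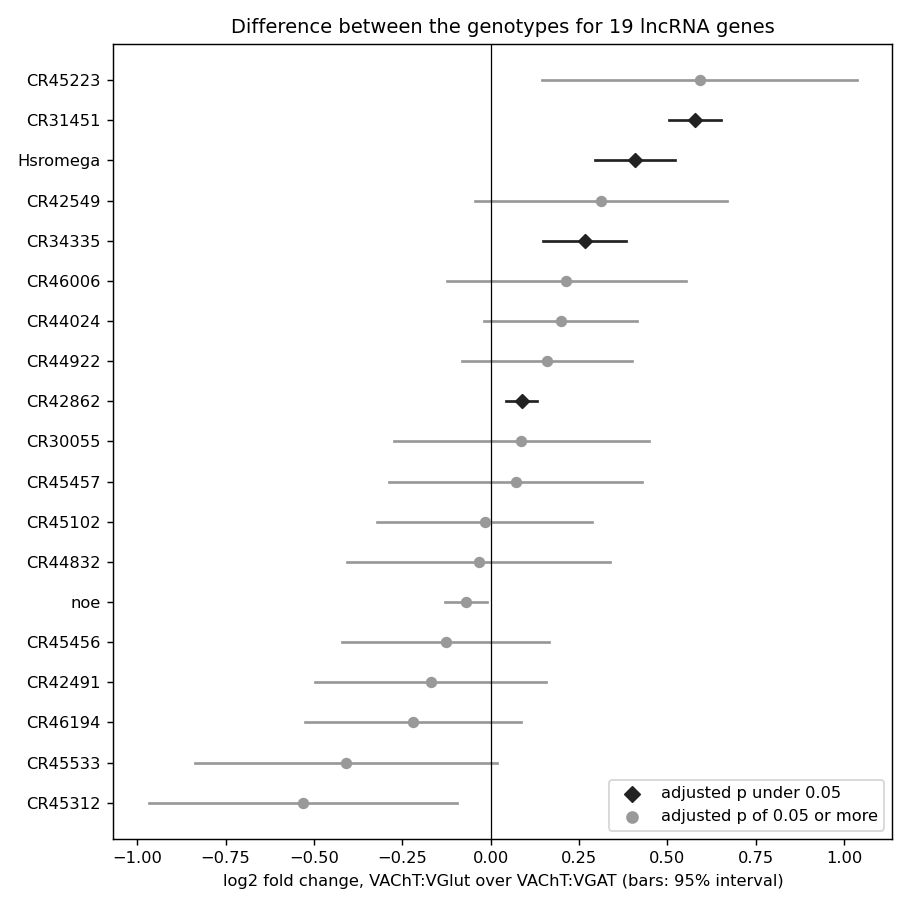
Log2 fold change of each of the 19 lncRNA genes, VAChT:VGlut over VAChT:VGAT, with the 95% interval from the edgeR fit as a bar. The 4 genes past the threshold (diamonds) lie right of 0, and intervals are wide for the genes with few counts.

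Among the members called, lncRNA:CR31451, or mimi (FBgn0051451; dm6 chromosome 3R, 23983503 to 23985065, plus strand, 1 exon block), showed the largest difference. It had 1474 and 1538 CPM in the VAChT:VGlut libraries, against 1005 and 1016 CPM in the VAChT:VGAT libraries. Every VAChT:VGlut library was above every VAChT:VGAT library, and the distance between the groups was far larger than that between libraries of a group. The means were 1506 ± 44.7 and 1010.3 ± 8.17 CPM (SD, n = 2 each), a 1.49-fold higher level in VAChT:VGlut (log2 fold change 0.58, SE 0.04 and edgeR adjusted p = 1.49e-20). The gene begins 270 bases beyond the end of CG31140 on the same strand, which was also higher in VAChT:VGlut, with 411.2 ± 0.53 and 341 ± 13.2 CPM (SD, n = 2 each), a log2 fold change of 0.27 (SE 0.06 and edgeR adjusted p = 0.000494). CG13603, whose end lies 147 bases past the end of lncRNA:CR31451 on the other strand, had 64.1 and 65.8 CPM on average and was not called (log2 fold change -0.03, edgeR adjusted p = 0.926).

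lncRNA:Hsromega (FBgn0001234; chromosome 3R, 21296127 to 21317836, plus strand) was second in size. The RNA was at 481 and 475 CPM in VAChT:VGlut, against 359.8 and 360.2 CPM in VAChT:VGAT. Replicates were almost equal within each genotype, and the groups did not overlap. The VAChT:VGAT values rest on 703 and 541 counts, where counting error alone is larger than their spread. The small SDs of 2 libraries are thus no measure of precision. The means of 478 ± 4.05 and 360.0 ± 0.34 CPM (SD, n = 2 each) gave a log2 fold change of 0.41 (SE 0.06 and edgeR adjusted p = 5.9e-08), or 1.33-fold. Part of this transcript consists of tandem repeats, and the counting command sets no option to keep reads that map to several places. The nearest gene, CG16791, which lies 463 bases past its end on the other strand, was higher in VAChT:VGlut as well, by 0.17 on the log2 scale (SE 0.05 and edgeR adjusted p = 0.00823).

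Because omega speckles hold hnRNPs and related proteins, and because lncRNA:Hsromega responds to heat, the genes of these proteins and of the heat response were read from the same fit. Of 9 genes tested from a list for omega speckles, 3 rose in VAChT:VGlut, a share close to the 33.5% called in either direction among all genes with 1000 counts or more. They were sqd and Hrb98DE, both hnRNPs, by 0.18 each, and heph, a polypyrimidine tract binding protein, by 0.26 on the log2 scale (edgeR adjusted p = 0.0014, 0.0117 and 0.000292). The remaining 6 did not pass and lay on both sides of 0. Iswi, a chromatin remodeller gene and not an hnRNP, was the farthest from 0 of all 9 at -0.41 (edgeR adjusted p = 0.12). Pep was at -0.03, Saf-B at 0.02 and Hrb87F at 0.12. Of 9 heat shock genes tested, 0 passed the threshold in edgeR, limma-voom or DESeq2, and an unadjusted p-value under 0.05 was reached by 3 in edgeR, 3 in limma-voom and 0 in DESeq2. Those in edgeR were DnaJ-1 and stv, at 0.22 and 0.19 on the log2 scale, and Hsc70-4, at -0.07. Hsp68 was at 0.38, and Hsp26, Hsp27 and Hsp23 were at -0.49, -0.74 and -0.56, each on 84 summed counts or fewer. Of the 9, 4 had a positive log2 fold change. Hsp83 averaged 704 CPM in VAChT:VGlut and 696 CPM in VAChT:VGAT. The heat-induced genes Hsp70Aa, Hsp70Ab, Hsp70Bb, Hsp70Bbb, Hsp70Bc and Hsp22 had 0 counts in all 4 libraries, while Hsp70Ba had counts but did not pass the filter for the test. Reads that map to several places may be missing from gene copies such as those of Hsp70, so 0 counts do not show that the Hsp70 genes were silent. Whether Hsp22 was silent was not tested.

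lncRNA:CR34335 (FBgn0267910; chromosome X, 3545750 to 3546110, minus strand) is the shortest member, with 361 exonic bases. The VAChT:VGlut libraries had 423 and 437 CPM and the VAChT:VGAT libraries 347 and 371 CPM. The gap between the groups was wider than the spread within either. The log2 fold change was 0.27 (SE 0.06 and edgeR adjusted p = 0.000592), a 1.20-fold higher level in VAChT:VGlut, and without VAChT:VGAT replicate 1 it was 0.21 and no longer called (edgeR adjusted p = 0.0745). The gene lies between exons of DIP-alpha, a cell surface protein of synaptic recognition, on the same strand and shares none of its exon bases. DIP-alpha itself had 2.59 CPM per kb of exon in VAChT:VGlut and 2.42 in VAChT:VGAT, while lncRNA:CR34335 had 1191 and 995 CPM per kb. The host was not called (log2 fold change 0.09, SE 0.23 and edgeR adjusted p = 0.878), and at 179 summed counts it was measured far less precisely than the RNA inside it.

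lncRNA:CR42862 (FBgn0262109; chromosome 3L, 224106 to 230964, plus strand, 3 exon blocks) had the smallest difference of the called members. It was at 12998 and 12738 CPM in VAChT:VGlut, against 12195 and 12017 CPM in VAChT:VGAT. Both VAChT:VGlut libraries were higher, by little. The log2 fold change of 0.09 (SE 0.02 and edgeR adjusted p = 0.00257) is a 1.06-fold difference, measured on 99804 summed counts. With library size alone as the scaling the log2 fold change was 0.05 (edgeR adjusted p = 0.116), and lncRNA:noe was called lower instead, so that 3 called members were higher in VAChT:VGlut and 1 was lower there. Without VAChT:VGAT replicate 2 it was not called either (edgeR adjusted p = 0.116). CG33229 overlaps its start, sharing 246 exon bases on the same strand and had 70.3 and 70.1 CPM (log2 fold change 0.02, edgeR adjusted p = 0.946).

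lncRNA:noe (FBgn0026197; chromosome 3L, 17400272 to 17401348, minus strand) was the abundant member without a call. It had 2619 and 2659 CPM in VAChT:VGlut and 2808 and 2730.1 CPM in VAChT:VGAT. The groups did not overlap, with lower values in VAChT:VGlut. The log2 fold change was -0.07 (SE 0.03, 95% interval -0.13 to -0.01, edgeR adjusted p = 0.119), and it was called lower under limma-voom (adjusted p = 0.0148). The gene sits between exons of blot, a gene of the neurotransmitter transporter family, on the same strand. blot had 14.9 and 18.3 CPM per kb, against 2450.0 and 2571 CPM per kb for lncRNA:noe, and was not called either (log2 fold change -0.30, SE 0.13 and edgeR adjusted p = 0.138).

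The order of the members depended on whether length was taken into account. By CPM per kb of exon, lncRNA:noe came first in each of the 4 libraries, 1.03 and 1.06 times the level of lncRNA:CR42862 in VAChT:VGlut and 1.17 and 1.16 times in VAChT:VGAT. They ranked 6 and 8 among the 8246 tested genes by mean CPM per kb. lncRNA:CR34335 followed at rank 27, and lncRNA:CR31451, with 964 and 646 CPM per kb, at rank 51. lncRNA:Hsromega, whose exonic length of 21710 bases is the longest of the members, fell to rank 3750, with 22.0 and 16.6 CPM per kb. That length merges the exons of a gene with 7 annotated transcripts. It also covers tandem repeats, where reads that map to several places may be missing, so its level per kb may be too low. In each library lncRNA:CR34335 was above lncRNA:CR31451 per kb, although its CPM was lower. The lowest members per kb were lncRNA:CR45533, lncRNA:CR45223 and lncRNA:CR46006, at 3.22 to 6.13 CPM per kb in either genotype.

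**Figure D3:**
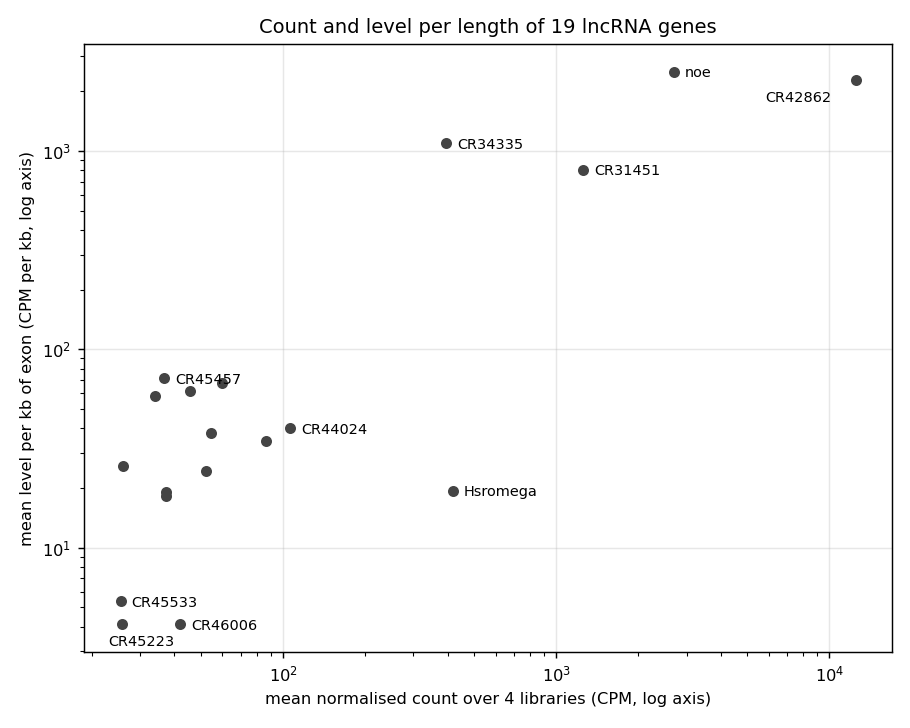
Mean normalised count of the 19 lncRNA genes over the 4 libraries (CPM, horizontal log axis) against the mean level per kb of exon (vertical log axis). The short genes noe and CR34335 rise in the order per length, and Hsromega, with 21710 exonic bases, drops.

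Several members contain or adjoin annotated small RNAs. lncRNA:CR46006 (FBgn0267668; chromosome 3L, 10323501 to 10367450, plus strand, 5 exon blocks) holds mir-276a near its end, and RefSeq gives pri-mir-276b_mir-276a as another of its names. This microRNA acts in fly olfactory memory. It had 43.7 and 46.1 CPM in VAChT:VGlut, against 36.8 and 41.3 CPM in VAChT:VGAT. All VAChT:VGlut values were higher, but the difference did not pass the test (log2 fold change 0.21, 95% interval -0.12 to 0.55, edgeR adjusted p = 0.511). Its nearest protein genes were almost silent, with 14 summed counts for Or67d, an odorant receptor gene, and 0 for CG12362. lncRNA:CR46194 (FBgn0267913; chromosome 2R, 12169558 to 12171706, minus strand) holds mir-281-1 and mir-281-2. RefSeq now lists it as an antisense RNA, and SmD3 runs the other way across its end, over 279 exon bases. It lies inside Oda, the ornithine decarboxylase antizyme gene, on the same strand, and 74.7% of its exon bases were shared with no gene on that strand. It was at 50.8 and 46.1 CPM in VAChT:VGlut, against 57.3 and 54.6 CPM in VAChT:VGAT. The lower VAChT:VGlut values did not pass the test (log2 fold change -0.22, 95% interval -0.53 to 0.09, edgeR adjusted p = 0.439), and Oda differed by 0.02 (edgeR adjusted p = 0.806).

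lncRNA:CR42491 (FBgn0259993; chromosome X, 762615 to 763810, minus strand) lies inside RpL22, a ribosomal protein gene, and encloses snoRNA:Psi18S-531. On its strand, 49.5% of its exon bases were free of other genes. It had 40.2 and 45.3 CPM in VAChT:VGlut and 45.0 and 52.6 CPM in VAChT:VGAT, and the groups overlapped (log2 fold change -0.17, edgeR adjusted p = 0.606). RpL22 was not called (log2 fold change -0.08, edgeR adjusted p = 0.377), nor was the snoRNA, at 51 summed counts. Within lncRNA:Hsromega and lncRNA:CR46006 the microRNA genes mir-4951 and mir-276a had 0 counts, as had both mir-281 genes, and mir-9381, which spans the start of lncRNA:CR31451, had 1. Their bases are also exon bases of the lncRNA, and the counting command sets no option to keep reads that overlap more than 1 gene, so these values say nothing of the mature microRNAs. Of 7 genes of the microRNA machinery tested, 1 was called, against 11.8% of all genes. This was AGO1, which carries microRNAs to their targets, at 973 CPM in VAChT:VGlut and 627 CPM in VAChT:VGAT (log2 fold change 0.63, edgeR adjusted p = 9.18e-19). The cofactor loqs was at 0.29 and the nuclease drosha at 0.47, and neither was called (edgeR adjusted p = 0.0686 and 0.208).

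Among the less abundant members, the biggest differences were those of genes near the threshold of 200 counts. lncRNA:CR45223 (FBgn0266750; minus strand of chromosome 3R, 17646903 to 17653478) had 36.7 and 26.2 CPM in VAChT:VGlut, against 23.0 and 17.3 CPM in VAChT:VGAT. The values did not overlap between genotypes, but the spread within each was wide. The log2 fold change of 0.59 (SE 0.22, 95% interval 0.15 to 1.04) missed the threshold (edgeR adjusted p = 0.0721), though it passed without VAChT:VGlut replicate 2 (edgeR adjusted p = 0.0289). Of the 210 counts that brought it over the threshold, 73 and 66 came from the VAChT:VGlut libraries. lncRNA:CR45312 (FBgn0266851; minus strand of chromosome 2R, 13361825 to 13362835) went the other way, with 19.6 and 22.2 CPM in VAChT:VGlut and 26.1 and 36.0 CPM in VAChT:VGAT, or -0.53 on the log2 scale (SE 0.22 and edgeR adjusted p = 0.11). It had exactly 200 counts, 51 and 54 of them from the VAChT:VGAT libraries, and at its VAChT:VGlut level throughout it would have fallen short. Its difference is therefore a description only. It stands apart from active protein genes: CG17048 and CG10814, the nearest on either side, had 2 and 6 summed counts.

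lncRNA:CR45533 (FBgn0267089; chromosome X, 7445387 to 7450119, plus strand) had 21.6 and 22.2 CPM in VAChT:VGlut, against 30.7 and 27.3 CPM in VAChT:VGAT. The groups did not overlap, and the log2 fold change was -0.41 (95% interval -0.84 to 0.02, edgeR adjusted p = 0.252). This gene too had exactly 200 counts, 60 and 41 of them from the VAChT:VGAT libraries, where its level is higher. At its VAChT:VGlut level throughout it would have fallen short, so its difference is a description only. Its nearest protein genes on both sides fell in VAChT:VGlut. CG32726, 19643 bases to the left, had 98.1 and 180.2 CPM on average (log2 fold change -0.88, edgeR adjusted p = 4.15e-11), and CG11368, 2089 bases to the right on the same strand, had 264 and 425 CPM (log2 fold change -0.70, edgeR adjusted p = 7.71e-14).

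A contrasting case was lncRNA:CR45102 (FBgn0266549; chromosome X, 3701857 to 3703285, plus strand), which starts 184 bases past the end of Mnt, a repressor that opposes Myc. Mnt was higher in VAChT:VGlut, with 268 ± 0.8 and 181 ± 11.6 CPM (SD, n = 2 each), a log2 fold change of 0.56 (SE 0.08 and edgeR adjusted p = 2.33e-08). lncRNA:CR45102 had 51.8 and 56.8 CPM in VAChT:VGlut and 60.9 and 47.9 CPM in VAChT:VGAT. Its VAChT:VGlut values lay between its VAChT:VGAT values, and the log2 fold change of -0.02 had an interval of -0.32 to 0.29 (edgeR adjusted p = 0.969). The difference between the fold changes of Mnt and the lncRNA was not itself tested.

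lncRNA:CR45456 (FBgn0267012; 9325845 to 9326721) and lncRNA:CR45457 (FBgn0267013; 9327039 to 9327553) lie 317 bases apart on the plus strand of chromosome 2L, between Ggamma30A, a G protein subunit gene of the eye, and CG17005. lncRNA:CR45456 had 63.3 and 51.6 CPM in VAChT:VGlut and 65.0 and 58.6 CPM in VAChT:VGAT. lncRNA:CR45457 had 36.2 and 38.9 CPM in VAChT:VGlut and 35.8 and 36.0 CPM in VAChT:VGAT. Neither was called (log2 fold changes -0.13 and 0.07, edgeR adjusted p = 0.684 and 0.877). Ggamma30A, which ends 23350 bases before lncRNA:CR45456, was called higher in VAChT:VGlut (log2 fold change 0.21, SE 0.03 and edgeR adjusted p = 1.89e-08). Per kb of exon they were close to each other, at 65.5 and 72.9 CPM in VAChT:VGlut and 70.5 and 69.7 CPM in VAChT:VGAT, and CG17005, which begins 190 bases further on, had 78.7 and 85.8 CPM per kb and was not called (log2 fold change -0.11, edgeR adjusted p = 0.491).

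lncRNA:CR44024 (FBgn0264794; chromosome 4, 427331 to 431769, plus strand), the most abundant of the 14 lower members, had 113.1 and 112.8 CPM in VAChT:VGlut, against 94.7 and 103 CPM in VAChT:VGAT. Its VAChT:VGlut values were all higher, with a log2 fold change of 0.20 (95% interval -0.02 to 0.41, edgeR adjusted p = 0.28). lncRNA:CR44922 (FBgn0266227; chromosome 3R, 4375084 to 4377600, plus strand) had 94.5 and 89.4 CPM in VAChT:VGlut and 85.5 and 77.9 CPM in VAChT:VGAT (log2 fold change 0.16, edgeR adjusted p = 0.488). Here too the groups did not overlap and the difference was within the error of the fit. lncRNA:CR42549 (FBgn0260722; chromosome 3R, 9548104 to 9551806, minus strand) shares its start with mura, a ubiquitin ligase gene. It had 38.7 and 44.1 CPM in VAChT:VGlut and 34.8 and 32.0 CPM in VAChT:VGAT, with a log2 fold change of 0.31 (95% interval -0.04 to 0.67, edgeR adjusted p = 0.309). mura, with 4455 summed counts, was called at 0.19 (SE 0.05 and edgeR adjusted p = 0.00593).

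In the last pair the libraries of the genotypes overlapped. lncRNA:CR30055 (FBgn0050055; chromosome 2R, 12589239 to 12591395, plus strand), which lies within Sin3A, a corepressor gene, on the other strand, had 34.2 and 42.9 CPM in VAChT:VGlut and 40.4 and 32.0 CPM in VAChT:VGAT (log2 fold change 0.09, edgeR adjusted p = 0.85). lncRNA:CR44832 (FBgn0266095; chromosome X, 5790952 to 5791536, minus strand) had 30.7 and 36.6 CPM in VAChT:VGlut and 35.8 and 33.3 CPM in VAChT:VGAT (log2 fold change -0.03, edgeR adjusted p = 0.946). For 11 of the 15 members without a call, the 95% interval excluded a 1.5-fold difference in both directions, and for the other 4 it did not. A missed threshold does not show equal levels, and the 4 are lncRNA:CR45223, lncRNA:CR45312, lncRNA:CR45533 and lncRNA:CR42549.

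The positions of the members were compared with their values. In the table's annotation 12 members had a single exon block, 8 overlapped no other gene, 5 lay inside the span of another gene on the same strand, and 3 overlapped a gene on the opposite strand. Each member was set against 1 gene with no noncoding prefix, the one overlapping it or otherwise the nearest, and for 16 of 19 pairs both genes were tested. Across these 16 pairs Spearman's rho between the log2 fold changes was 0.45, the signs were the same in 10, and 1 pair, lncRNA:Hsromega and CG16791, had both genes called. Of the neighbours in these pairs, 4 were called: CG16791, Mnt, mura and CG11368. lncRNA:CR31451 was paired with CG13603, 147 bases away, and not with CG31140, 270 bases away on the same strand, which was called in its direction (log2 fold change 0.27). The pairs share libraries, and CG17005 stands in 2 of them. After the trend of fold change on exonic length was removed, rho was 0.09.

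**Figure D4:**
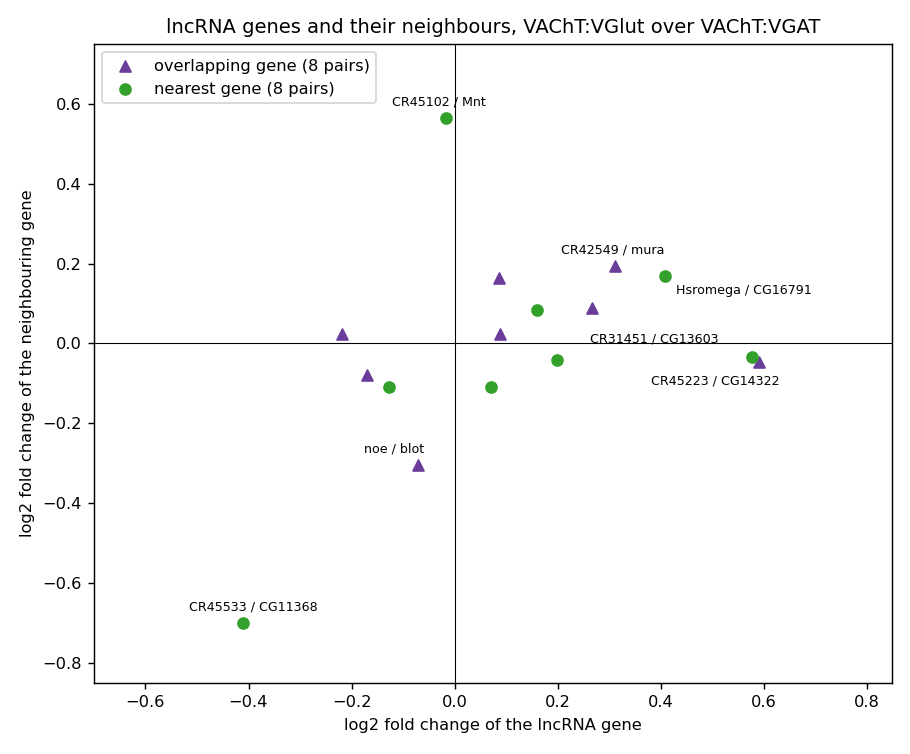
Log2 fold change of 16 lncRNA genes (horizontal) and of the gene that overlaps each or lies nearest (vertical), VAChT:VGlut over VAChT:VGAT. CR45533 and CG11368 lie low together, CR45102 is at 0 beside a high Mnt, and CR31451 is high beside a CG13603 near 0. CG31140, on the other side of CR31451 and also higher in VAChT:VGlut, is not drawn.

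Fold changes rose with exonic length over all 8246 genes (Spearman's rho 0.33) and over the 19 members (0.38). The members ranged from 361 to 21710 exonic bases with a median of 1968, against 2319 over all genes tested. The called members fell on both sides of that median. lncRNA:CR34335 and lncRNA:CR31451 are shorter, with 361 and 1563 bases, and lncRNA:CR42862 and lncRNA:Hsromega longer. With the trend removed, lncRNA:CR34335 was at 0.51, lncRNA:CR31451 at 0.67 and lncRNA:Hsromega at 0.20, each still called, while lncRNA:CR42862 was at 0.01 and was not (edgeR adjusted p = 0.928). In that fit 7.64% of all genes were called.

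**Figure D5:**
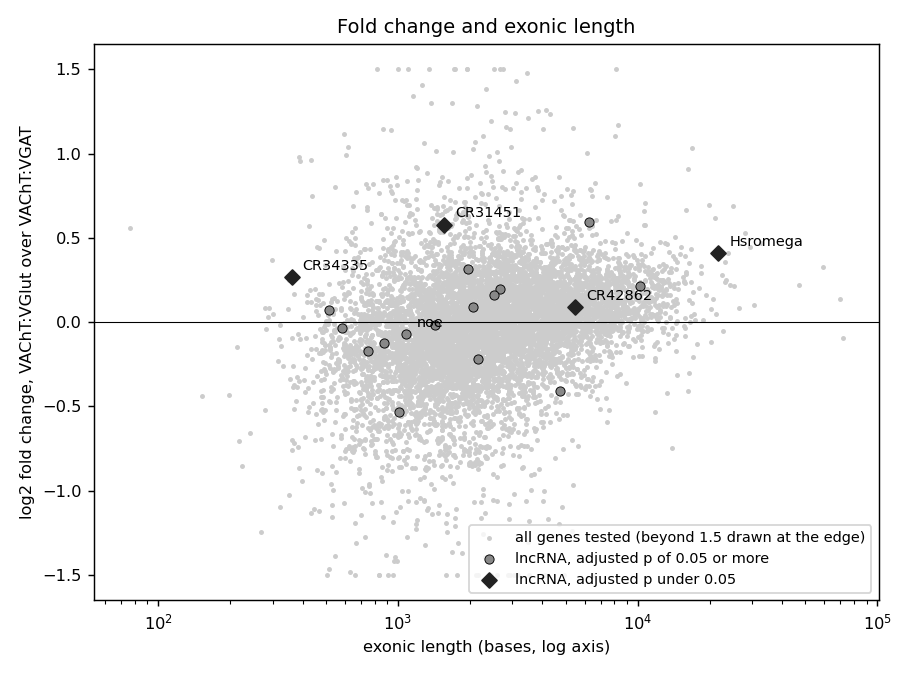
Log2 fold change (VAChT:VGlut over VAChT:VGAT) against exonic length (log axis) for all 8246 tested genes in grey and the 19 lncRNA genes as larger symbols. CR34335, with 361 bases, and CR31451, with 1563, lie above the trend of fold change on length, and CR42862 lies close to it.

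The neuronal marker genes moved in the same direction as the called members, while lncRNA:noe, an RNA of the nervous system, lay the other way without a call (log2 fold change -0.07). Of 9 tested, 8 were called, all higher in VAChT:VGlut, with a median log2 fold change of 0.25. Among them para, a sodium channel gene, was at 0.35 and elav, an RNA-binding protein gene, at 0.25. Photoreceptor markers had a median of 0.22 (9 of 15 called higher in VAChT:VGlut and 2 higher in VAChT:VGAT), and muscle markers 0.39 (6 of 9 higher). Fat body, glial and hemocyte markers had medians of -0.37, -0.22 and -0.33, with 6 of 8, 5 of 10 and 5 of 6 called, all higher in VAChT:VGAT. Beside these lists, 11.8% of all genes tested were called, and 33.5% of those with 1000 summed counts or more. The part of these cell types in the lncRNA differences was not tested. The dropped gene lncRNA:roX1, an RNA that coats the male X chromosome, had 1720 and 1546 CPM on average (log2 fold change 0.15, edgeR adjusted p = 0.000494), and its partner lncRNA:roX2 had 54.0 and 49.2 CPM and was not called (edgeR adjusted p = 0.703). Of the 5 X-linked members 1 was called, lncRNA:CR34335, against 11.8% of all genes, and their median log2 fold change was -0.03.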

How the data were processed

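Poly(A) RNA of INTACT-purified head nuclei was sequenced in 4 libraries with a directional kit, per the labels' protocols. The authors deposited raw read counts per gene, made with featureCounts 1.5.1 on the reverse strand with read pairs and dm6 gene models, per the file headers; fastp, STAR and DESeq2 are also named in the submitters' processing notes, with no role given. Every per-sample column was used.

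The counts were fitted over all genes with edgeR 4.0.16 (R 4.3.3), with TMM scaling (factors 0.987 to 1.01), filterByExpr (minimum count 10, minimum total 15), a quasi-likelihood F test and Benjamini-Hochberg adjustment over 8246 genes, called under 0.05. Scripts were tested on simulated data. CPM values use the TMM-scaled library sizes, and levels per kb divide by the table's exonic length. With 2 libraries per genotype and a common biological coefficient of variation of 2.18%, counts of the low members limit precision. Gene identifiers were matched through RefSeq and Ensembl tables for 19 of 19 members. The members and gene lists were chosen with earlier results of these data known. Members named at length were those with a gene name, the 10 highest by CPM, those called, those holding a small RNA and those at the threshold; lncRNA:CR42549, lncRNA:CR30055, lncRNA:CR45457 and lncRNA:CR44832 fall outside that rule and were added to account for every member. Alternatives covered scaling, filters, limma 3.58.1 and DESeq2 1.42.0, dispersion, a fold threshold, length, member thresholds, a replicate block and leaving out each library. Nucleotide sequences were not used here.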

Additional observations from a re-analysis of the deposited data

How the results depend on the processing

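Of 284 member fold changes recomputed under the alternatives, 257 kept their direction and side of the threshold, 11 were no longer called, 5 became called and 11 changed sign. The sign changes were in lncRNA:noe (0.058 with the length trend removed), lncRNA:CR45456 (0.022 with the trend removed, -0.26 to 0.030 without single libraries), lncRNA:CR45102 (0.081, and -0.16 to 0.19), lncRNA:CR44832 (0.16, and -0.18 to 0.078) and lncRNA:CR30055 (-0.10 to 0.29 without single libraries). The count of 4 called members was 1 where the biological coefficient of variation was set to 0.1 (lncRNA:CR31451; 2.26% of all genes), 0 when tested against a 1.5-fold change in edgeR (0.558% of all genes), 1 of the 12 members that share no exon base on their strand, which leaves out 3 of the called ones by construction, and 3 to 5 without single libraries (6.06% to 8.72% of all genes). The median of 0.09 was 0.027 from 100 counts up, 0.027 with no shared exon base and 0.030 to 0.12 without single libraries, lowest without VAChT:VGlut replicate 2. The difference from other genes' median, 0.07, was 0.13 with the length trend removed, 0.0099 from 100 counts up and also 0.0099 with no shared exon base, and 0.011 to 0.11 without single libraries. Spearman's rho with length, 0.38, was -0.063 with the trend removed, 0.23 from 100 counts, 0.28 from 400 counts, 0.19 with no shared exon base and 0.28 to 0.35 without single libraries. The rank correlation with neighbours, 0.45, was 0.57 with no filter, 0.090 with the trend removed, 0.33 from 400 counts and 0.34 to 0.53 without single libraries. The cause of these shifts was not tested. The deviations of the replicate 1 libraries of the genotypes had a correlation of -0.03 over 8246 genes. This measure weighs all genes alike, and counting error is large where counts are few, so it cannot tell whether the numbers pair samples. With the replicate block 5 members were called (12.7% of all genes), lncRNA:CR45223 being added at 0.64 (edgeR adjusted p = 0.0402), and the median and the rank correlations stayed within the spread. The alternative without lncRNA:CR42862 was chosen after seeing the data and called 3 of 18 (11.7% of all genes).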

Other observations

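Below 200 summed counts, 55 further lncRNA genes passed the filter on low counts. lncRNA:CR43242 had 24 and 31 counts in VAChT:VGlut and 53 and 49 in VAChT:VGAT, or -1.27 on the log2 scale (SE 0.25 and edgeR adjusted p = 7.6e-05). lncRNA:CR45054 had 20 and 37 counts in VAChT:VGlut and 9 and 6 in VAChT:VGAT, lncRNA:CR44851 had 17 and 21 against 5 and 5, and lncRNA:CR44042 had 11 and 14 against 2 and 1. These last 3 genes passed the filter only through the VAChT:VGlut libraries, where they are high, so their values are given as a description, with no test.

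Other noncoding genes were called as well. pre-rRNA:CR45856, a ribosomal RNA precursor, averaged 2264 CPM in VAChT:VGlut and 1454 CPM in VAChT:VGAT, or 0.63 on the log2 scale (SE 0.03). hpRNA:CR18854, a hairpin RNA, averaged 445 and 379.8 CPM (log2 fold change 0.23, edgeR adjusted p = 0.0028), and asRNA:CR45131 46.5 and 63.5 CPM (log2 fold change -0.44, edgeR adjusted p = 0.0402).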
